A study of Komagataella pastoris with 3 samples.

Results

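Among the genes of Pichia pastoris GS115 that were moderately expressed after 24 h of culture, 169 were at least 2-fold lower at 36 h and then kept a level within 2-fold of that until 48 h. They were picked from 5040 measured genes by their values in all 3 libraries. A gene was taken if its level was at least 150 and under 1000 FPKM at 24 h, if log2(FPKM + 1) was lower by at least 1 at 36 h, and if the difference between 48 and 36 h lay between -1 and 1. FPKM counts sequenced fragments relative to gene length and to all mapped fragments, so it states a share of the messenger RNA and not an amount per cell. The level at 24 h, the early difference and the later difference are therefore properties of the choice and are given as a description.

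The strain is a methylotrophic yeast used for protein production, labelled wild-type in every sample and named Komagataella pastoris in the organism field, although GS115 is usually classified as Komagataella phaffii. All 3 groups shared the strain, rich medium with yeast extract, peptone and glucose, and shaking at 30 °C. They differed in culture time, which was 24, 36 or 48 h. Each time was represented by 1 library, and whether the 3 samples came from the same flask is not given in the sources used here. No value has a replicate error, no difference was tested, and each comparison is one between libraries. FPKM totals lay between 760684 and 871921, and the sequencing depth is unknown. In a bulk culture, fewer cells that use a gene and less RNA of it per cell cannot be told apart.

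As background, yeast in batch culture first grows on sugar and then slows as nutrients run out. Transcripts needed for growth, such as those for making ribosomes, generally become scarcer in slowing yeast, while transcripts for using other carbon sources and for withstanding stress become more abundant. A level of messenger RNA reflects both its synthesis and its decay. Which of these functions the 169 genes serve cannot be said from these data, because the table lists locus tags without names and none of its tags matched the reference table at hand. The genes are therefore described by level, course and position.

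The 169 genes ranged from 151 to 931 FPKM at 24 h, with a median of 231. By 36 h the range was 7.98 to 311 FPKM and the median 79.7, and by 48 h the range was 6.57 to 414 FPKM and the median 73.6. The quartiles were 185 and 337 FPKM at 24 h, then 59.4 and 108, and finally 54.6 and 104 FPKM. The lower quartile at 24 h lay above the upper quartile of both later times. The choice required lower levels after 24 h, so this only describes the set. None of the 169 genes was listed at 0 in any library. Their joint share of the FPKM total was 5.85% at 24 h, and it was 2.03% and 2.04% at the later times.

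**Figure D1:**
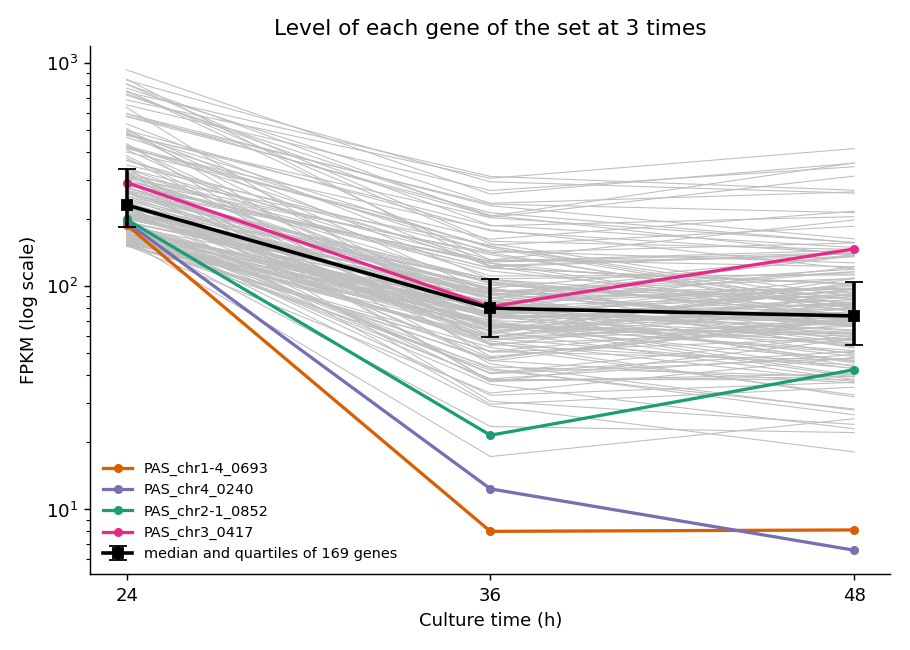
Level in FPKM (log axis) of each of the 169 genes (grey lines) at 24, 36 and 48 h, with the median and quartiles over genes (black) and the 4 tags named in the text (colours). The median goes from 231 to 79.7 and 73.6 FPKM, and the coloured lines include both genes that end under 10 FPKM.

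Position within each library, which does not depend on how libraries are scaled to each other, ranks the same values that the choice used. A lower position after 24 h is therefore favoured by the choice and is given as a description. The median gene of the set stood at percentile 88.4 of all genes at 24 h, and at percentiles 66.7 and 62.6 at the later times. Most of these genes thus remained more abundant than the typical gene of the culture. Those below the median gene of the library numbered 27 of 169 at 36 h and 40 of 169 at 48 h, while at 24 h the lowest of the set stood at percentile 81.0. A level of at least 150 FPKM, the lower bound of the choice at 24 h, was still met by 23 genes at 36 h. At 48 h it was met by 17 genes. These were 13.6% and 10.1% of the set, where 19.0% and 18.4% of all genes met that level. Levels under 50 FPKM were seen in 28 genes at 36 h and in 37 genes at 48 h. These were 16.6% and 21.9% of the set, against 51.2% and 48.6% of all genes.

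**Figure D2:**
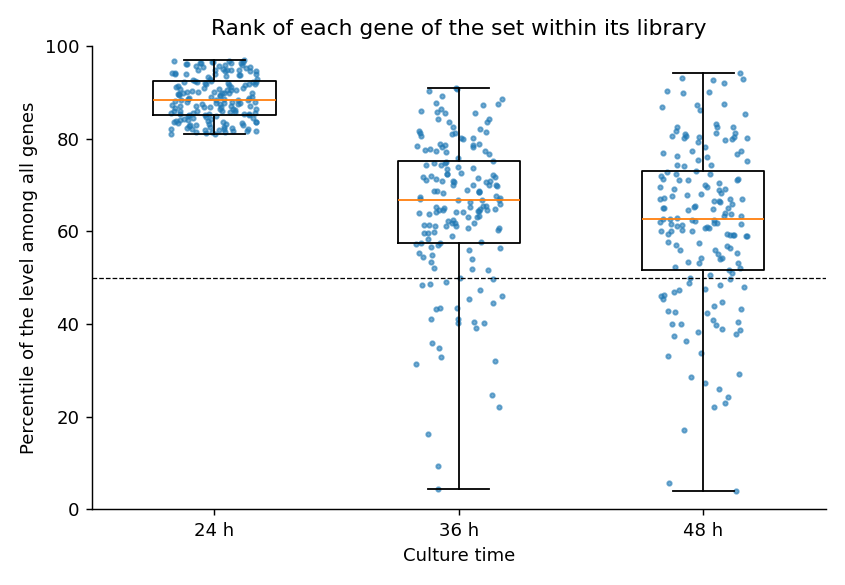
Percentile of each of the 169 genes among all 5028 genes of the same library at 24, 36 and 48 h (points), with boxes for the quartiles and whiskers to the lowest and highest gene. The median goes from 88.4 to 66.7 and 62.6, and the spread between genes is wider at both later times. The choice set a range of levels at 24 h only, so a narrower spread at 24 h is favoured by it.

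The early difference varied widely within the set. Its median was -1.49 on the log2(FPKM + 1) scale, with quartiles of -1.98 and -1.25, against a median of -0.21 for all 5028 genes with at least 1 FPKM in some library. At the median gene of the set, 35.3% of the 24 h FPKM was left at 36 h. Between 2-fold and 2.5-fold lower were 61 genes, between 2.5-fold and 4-fold lower were 67 genes, and 41 genes exceeded a 4-fold difference, among them 11 with 8-fold or more. Of all genes 19.4% were lower by 2-fold or more in this interval, 5.19% by 4-fold or more and 0.815% by 8-fold or more. Since the choice required a 2-fold difference, nothing is read from these counts beyond how the set is divided.

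The 2 tags with the largest early difference reached the lowest levels of the set. PAS_chr1-4_0693 had 188 FPKM at 24 h, followed by 7.98 FPKM at 36 h and by 8.10 FPKM at 48 h. Its value of FPKM + 1 was 21.1-fold lower at 36 h and stayed there. PAS_chr4_0240 had 194 FPKM at 24 h, followed by 12.4 FPKM at 36 h and by 6.57 FPKM at 48 h. Its early difference was -3.87 and a further difference of -0.82 came after 36 h, close to the limit of the choice. At 24 h both tags stood near percentile 85.5 and 85.9 of all genes, and at 48 h they stood at percentiles 5.66 and 3.89. By their tags they lie on chromosomes 1 and 4.

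After 36 h the set stayed near its new level by construction, since the choice kept only genes within 2-fold from 36 to 48 h. The median difference between 48 and 36 h was -0.11, with quartiles of -0.49 and 0.28, and 92 genes were lower and 77 higher at 48 h, where 48.4% of all genes were lower by any amount. Within 1.5-fold were 119 of the 169 genes. A further 33 genes were lower by 1.5-fold or more and 17 were higher by 1.5-fold or more. Over all genes 50.4% lay within 1.5-fold, while 24.0% were lower and 25.5% higher by 1.5-fold or more. Genes that had changed 2-fold or more in this interval were barred from the set, so the shares are not comparable.

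The 2 tags with the largest upward difference after 36 h lay near the upper limit of the choice. Together with the early limit, this limit keeps every gene of the set below its 24 h level. PAS_chr2-1_0852 had 199 FPKM at 24 h, followed by 21.5 FPKM at 36 h and by 42.3 FPKM at 48 h, a later difference of 0.94. At 48 h it had 21.2% of its 24 h FPKM. PAS_chr3_0417 had 292 FPKM at 24 h, followed by 81.0 FPKM at 36 h and by 147 FPKM at 48 h, a later difference of 0.85. This brought it to 50.4% of its 24 h FPKM.

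Over the whole course, 48 h against 24 h, the median difference was -1.73 and the median gene had 30.0% of its 24 h FPKM left. In 151 genes of the set the end point lay 2-fold or more below the start, and in 49 of them 4-fold or more, where 28% and 9.9% of all genes met these sizes. The other 18 genes had come back to less than 2-fold below the 24 h level. The highest value at 48 h was 69.4% of the 24 h FPKM. The limits on both intervals add up to this comparison and keep every gene of the set below its 24 h level, so these counts only describe how the set is divided.

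Divided by the size of the early difference, the genes overlapped widely in what followed. The 41 genes with a 4-fold or larger early difference had medians of 298, 44.9 and 58.1 FPKM at the successive times, and a median later difference of 0.19, with 26 of the 41 higher at 48 h. The other 128 genes had medians of 224, 87.1 and 80.4 FPKM and a median later difference of -0.15, with 51 of the 128 higher at 48 h. These shares were 63.4% and 39.8%, where 51.6% of all genes were higher at 48 h than at 36 h. Across the 169 genes the correlation between both differences was -0.27 (Pearson) and -0.32 (Spearman), against 0.05 (Pearson) over all genes. The quartiles of the later difference were -0.29 and 0.52 in the 41 genes and -0.51 and 0.20 in the 128. Both differences contain the 36 h library, so that its deviations enter them with opposite sign, and the limits of the choice act on both, so nothing is read from the sign of these values.

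**Figure D3:**
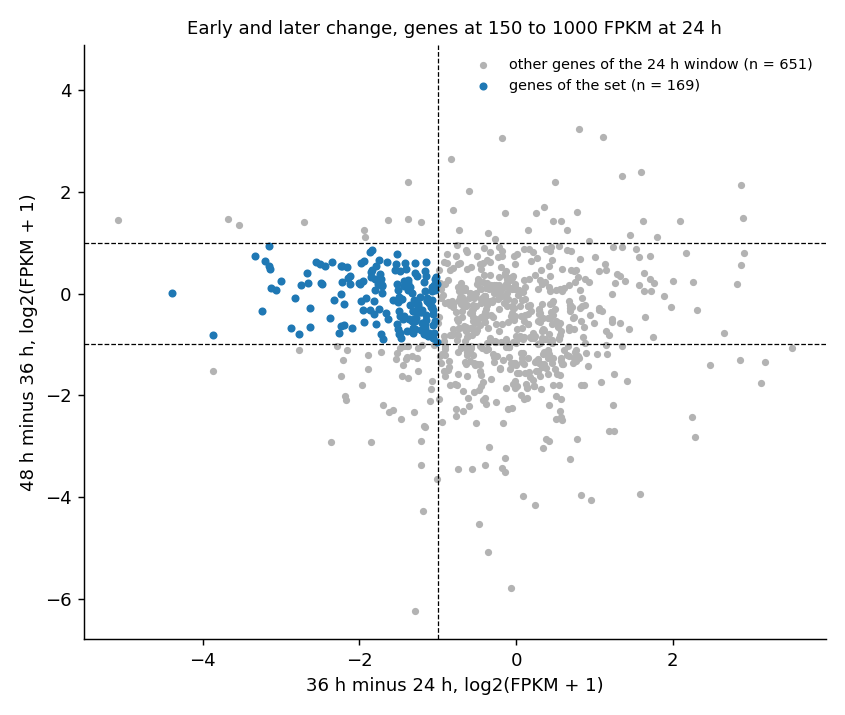
Difference 36 h minus 24 h (horizontal) and 48 h minus 36 h (vertical), both of log2(FPKM + 1), for the 169 genes of the set (blue) and the other 651 genes with 150 to 1000 FPKM at 24 h (grey). Dashed lines are the limits of the choice at -1 and 1, and grey points lie next to the set along the early limit and the lower of the later limits.

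The limits of the choice had genes close by on both sides, apart from the upper bound of the 24 h level and the later limit for higher genes. At the lower bound of the 24 h level, the nearest genes inside had 150.9, 151.9 and 152.5 FPKM, and the nearest outside with the same course had 148.6, 148.5 and 148.4 FPKM. At the early limit the nearest inside had differences of -1.007, -1.008 and -1.03 and the nearest outside -0.994, -0.990 and -0.985. At the later limit for lower genes they had -0.94, -0.89 and -0.88 inside and -1.002, -1.01 and -1.02 outside. Few genes lay near the later limit for higher genes, with 0.94, 0.85 and 0.82 inside and 1.11, 1.26 and 1.35 outside. At the upper bound of the 24 h level, the genes inside had 931, 848 and 839 FPKM, and those outside with the same course 1176, 1378 and 1413 FPKM.

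Genes of the set were also described by their 24 h level, which is itself a term of the early difference and a value of the choice. The 60 genes with 150 to 200 FPKM at 24 h had a median early difference of -1.40, the 55 genes with 200 to 300 FPKM -1.42, the 33 genes with 300 to 500 FPKM -1.77 and the 21 genes with 500 to 1000 FPKM -1.78. Over all genes of these classes, in or out of the set, the medians were -0.41, -0.22, -0.37 and -0.46, so no trend with the level is read from the set. A 4-fold difference or more was found in 15, 6, 13 and 7 genes of these classes. The median later differences were -0.17, 0.05, 0.07 and -0.12 and followed no order. The correlation between log2(FPKM + 1) at 24 h and at 48 h was 0.65 (Pearson) and 0.63 (Spearman) over the 169 genes. The limits on both differences tie the 48 h level to the 24 h level, so nothing is read from this correlation. The median 48 h levels of the classes were 49.5, 80.1, 87.0 and 163 FPKM.

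Set against the 820 genes with 150 to 1000 FPKM at 24 h, the set made up 20.6%. Of the 820, 27.4% were lower at 36 h by 2-fold or more, which is 225 genes, and 6.59% by 4-fold or more. A choice by a high value at 24 h alone favours lower values in the other libraries. Of the 225 genes, 169 or 75.1% then stayed within 2-fold, 46 were 2-fold or more lower again at 48 h and 10 were 2-fold or more higher. Staying within 2-fold from 36 to 48 h was common everywhere, with 73.5% of all genes doing so. It was seen in 63.2% of the 595 genes of the same 24 h level that had not been 2-fold lower at 36 h, whose median later difference was -0.50. The 36 h value divides the 225 from the 595 genes and also enters the later difference. Nothing is therefore read from comparing their shares.

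The 46 genes that were lower again are set apart from the set by the limit on the later difference, so their lower 48 h level follows from how they were divided. Their medians were 326, 106 and 35.4 FPKM at the successive times, and their median early difference was -1.43, close to the -1.49 of the set. At 48 h they had 10.02% of their 24 h FPKM left at the median, where the set had 30.0%. The 10 genes that were higher at 48 h had medians of 184, 44.3 and 102 FPKM, and a median early difference of -1.93. The later difference that divides these groups contains the 36 h library, as the early one does. Nothing is therefore read from comparing their early differences.

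The same course, lower by 36 h and then within 2-fold, was found at other starting levels too. Under 150 FPKM at 24 h it was shown by 463 genes, with a median early difference of -1.40 and a median later difference of 0.03. At 1000 FPKM or more it was shown by 58 genes, with a median early difference of -2.44 and a median later difference of -0.62. Of those 58 genes, 47 (81.0%) met a 4-fold early difference and 50 (86.2%) went on to a lower value at 48 h. In the set these were 41 (24.3%) and 92 (54.4%) of the 169 genes. Over all genes the shares were 5.19% and 48.4%. The interquartile range of the early difference was 0.48 for the 58 genes and 0.73 for the 169. The limit at -1 cuts this difference in both groups, so nothing is read from these ranges. With 1 library per time, these differences between groups of genes could not be tested.

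The share of genes that were lower at 36 h was nearly flat over the range of 24 h levels from which the set was taken. It was 27.7% at 150 to 200 FPKM, 27.4% at 200 to 300 FPKM, 24.9% at 300 to 500 FPKM and 30.8% at 500 to 1000 FPKM. Above 1000 FPKM it was 63.8%, and the share that was at least 4-fold lower went from 9.17% at 500 to 1000 FPKM to 52.9% above it. Of the genes lower at 36 h, those that then stayed within 2-fold were 60 of 75, 55 of 69, 33 of 44 and 21 of 37 in the 4 classes of the set, and 58 of 88 above 1000 FPKM.

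**Figure D4:**
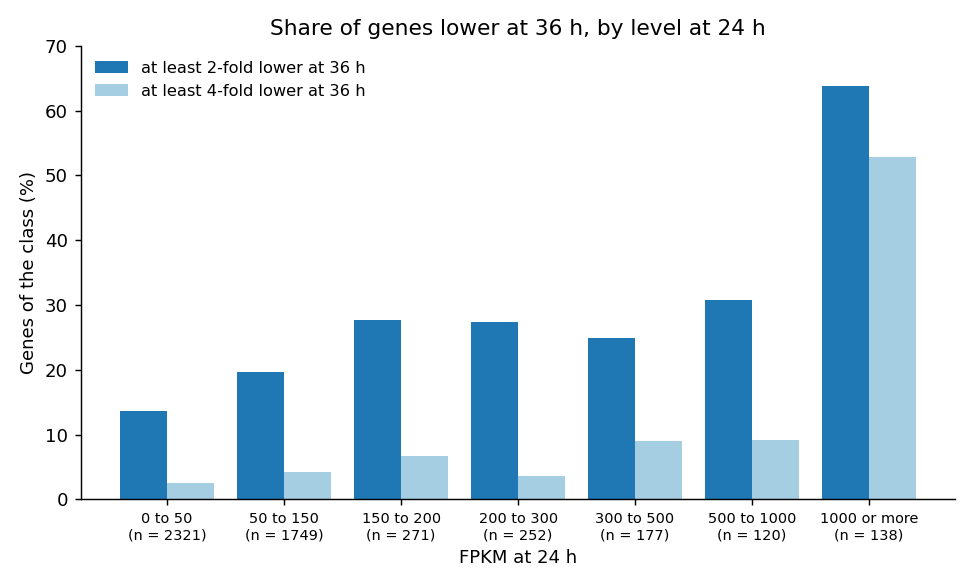
Percent of genes at least 2-fold lower (dark bars) and at least 4-fold lower (light bars) at 36 h than at 24 h, in 7 classes of the 24 h level in FPKM, with the number of genes under each class. The dark bars of the 4 classes from 150 to 1000 FPKM lie between 24.9% and 30.8%, and that above 1000 FPKM stands at 63.8%.

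Position in the genome, which played no part in the choice, was read from the tags. Of the 169 genes 45 carried tags of chromosome 1, 41 of chromosome 2, 45 of chromosome 3 and 32 of chromosome 4, and 6 carried other tags. These were 20.5%, 18.7%, 22.4% and 20.0% of the genes with 150 to 1000 FPKM at 24 h on chromosomes 1 to 4. Among the 20 genes of that level with other tags, the share was 30%. Of all genes, the shares were 3.11%, 3.09%, 3.83% and 3.38% on chromosomes 1 to 4, and 4.58% for other tags. The median early difference was -1.45, -1.79, -1.51 and -1.43 on these chromosomes, and the quartile range within the set spans all 4 values.

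Genes of the set were about as often neighbours of each other, by tag, as of any other gene. Of the 319 genes next to a gene of the set by tag number, counted once for each such neighbour, 10 or 3.13% belonged to the set themselves, where 3.34% of the neighbours of all genes did. The neighbours of the set had a median early difference of -0.23, against -0.21 for the neighbours of all genes, and 19.7% of them had a 2-fold or larger early difference downwards, against 19.5%. The 10 genes formed 5 pairs of consecutive tags, 2 on chromosome 1, 2 on chromosome 2 and 1 with other tags. In the pair closest in course, on chromosome 1, one gene had 159, 70.2 and 39.9 FPKM and the other 427, 151 and 86.3 FPKM at 24, 36 and 48 h, with later differences of -0.80 in both. In the pair farthest apart, on chromosome 2, one gene had 167, 79.7 and 63.6 FPKM and the other 173, 23.5 and 22.1 FPKM, so that their early differences were 1.77 apart on the log2 scale.

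The libraries' scaling bears on how many genes meet the choice. The median gene of all differed by -0.21 between 36 and 24 h with the deposited values and by 0.02 after median-of-ratios scaling. Relative to the median of all genes, the early difference of the 169 was -1.28 with either scaling. A scaling shifts every gene alike, so this agreement follows by construction. With median-of-ratios scaling 127 of the 169 genes still met every limit and no other gene did.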

How the data were processed

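Messenger RNA was sequenced from 3 samples, 1 per time point. Per the labels' protocols, cells were broken by bead beating, RNA was extracted and libraries were made with a VAHTS kit for Illumina. CASAVA and HISAT2 2.1.0 are listed in the submitters' processing notes. What counted the genes, on which build and annotation, with or without strand and with which filters, is not given in the sources used here. As deposited by the authors, the table holds 1 FPKM value per gene and library, per the file headers, and sequencing depth was not derived from it. Columns were matched by the codes in the sample titles.

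Differences were taken of log2(FPKM + 1), which understates changes of low genes. A filter at 1 FPKM in some library kept 5028 of 5040 genes, and all 169 chosen genes were among them. A 2-fold rule of size served in place of a test. The members, lists and rules were chosen with earlier results of these data known. The reference table (5305 genes of another strain, Komagataella pastoris ATCC 28485) matched 0 tags, so the 34 gene lists by function have no members, promoter motifs and protein lengths were not examined, and the naming rule fell back to 2 tags with the largest early fall and 2 with the largest later rise. Neighbours were tags with the next number under the same prefix. Alternatives were pseudocounts of 0.1 and 10, 3 rescalings, filters and other limits. The counting code was tested on simulated data with an assumed noise. No replicate gives the noise of these libraries, so no error rate is read from that test. Python 3.11.15, numpy 2.4.6, pandas 2.3.3 and matplotlib 3.10.9 were used.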

Additional observations from a re-analysis of the deposited data

How the results depend on the processing

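The set held 127 genes with median-of-ratios scaling, 135 with trimmed-mean scaling (30% of the ratios and 5% of the levels cut at either end), 147 with scaling to the 24 h total, and 170 and 168 with pseudocounts of 0.1 and 10. Of the 169 genes, 127, 131, 142, 169 and 154 were shared with these sets. Other limits gave 254 genes from 100 FPKM, 109 from 200 FPKM, 41 with a 4-fold early limit, 238 with a 1.5-fold early limit and 119 with 1.5-fold later limits, and wider or narrower limits add or remove genes by construction. For the 169 genes, the median difference of 36 h against 24 h was -1.26 with median-of-ratios, -1.28 with trimmed-mean and -1.34 with total scaling, and -1.50 and -1.40 with pseudocounts of 0.1 and 10. That of 48 h against 24 h was -1.50, -1.47 and -1.53 with these scalings and -1.74 and -1.62 with these pseudocounts. That of 48 h against 36 h was -0.063 with trimmed-mean scaling, -0.062 with total scaling and -0.10 with a pseudocount of 10. A scaling shifts every gene alike by construction. Genes at least 4-fold lower at 36 h numbered 31 to 42 over the scalings and pseudocounts. The early difference of PAS_chr1-4_0693 ranged from -4.54 to -3.46 and that of PAS_chr4_0240 from -3.96 to -3.19, and the later difference of PAS_chr2-1_0852 from 0.73 to 0.99 and that of PAS_chr3_0417 from 0.79 to 0.90. Filters at 0 or 10 FPKM left the share of all genes at least 2-fold lower at 36 h at 19.3%. Counts per gene list could not be made under any setting. No paired analysis was possible because a single library stands for each time, and for the same reason no replicate could be left out. Unknown depth limits the lowest values most.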
